A study of Homo sapiens with 24 samples.

Results

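Knockout clone C66 is one CRISPR clone of SW1222 cells in which DPPA3 was targeted, and its whole expression profile was set against that of the matched control line carrying a scrambled guide RNA. The samples were chosen by their titles, which gave 2 arrays of C66 and 2 arrays of the scrambled control, 4 of the 24 arrays in the series. All genes with a probe set of their own were described, 17448 in number. SW1222 is an established human colorectal cancer line. Both lines were untreated, with no doxycycline, and were grown as megacolonies (3D culture) embedded in Matrigel at 21% oxygen. The comparisons used beside it were a further DPPA3 clone, C75 (2 arrays), shRNA against DPPA3 with its control shRNA (3 arrays each), and DPPA3 overexpressed with its control line, both given 5 µg/ml doxycycline over the last 5 days in 3D (3 arrays each). Because C66 is a single clone, the loss of DPPA3 and whatever else sets this clone apart from the control line cannot be told apart within the comparison. The labels do not say whether the arrays of a group came from separate cultures. The p-values rest on the spread within the 9 groups of all 24 arrays, shared in part across genes. They do not rest on the C66 and scrambled arrays alone, and this spread may be technical.

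DPPA3, also called STELLA or PGC7, is a small protein of oocytes, early embryos and primordial germ cells. In mice it holds UHRF1 away from chromatin, and UHRF1 in turn recruits DNMT1, the enzyme that copies DNA methylation onto newly made strands. In the normal colon, stem cells at the crypt base depend on Wnt signalling and carry LGR5, while their daughters become absorptive enterocytes or mucus-making goblet cells.

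Levels are log2 values normalised by RMA, so a difference of 1 is a doubling, and levels of different probe sets are not compared with each other, apart from whether a gene lies above the median level of all genes. Replicate arrays correlated at r = 0.993 across genes in C66 and at 0.993 in the scrambled control, and the means of both groups at 0.992; genes are not independent replicates. All 12 epithelial markers lay above the median level of all genes, with a log2 summed level of 13.25 to 13.29 in C66 and 13.04 to 13.11 in the scrambled control. Of the markers of other cell types, 1 of 11 fibroblast genes, 1 of 10 leukocyte genes and 1 of 7 endothelial genes lay above that median in either group. The log2 summed level was 6.49 to 6.53 in C66 and 6.48 to 6.59 in the scrambled control for fibroblasts, and 6.475 to 6.577 in C66 and 6.451 to 6.603 in the scrambled control for leukocytes. For endothelium it was 5.87 to 5.89 in C66 and 5.90 to 5.95 in the scrambled control. The fibroblast and leukocyte sums overlapped, the endothelial sum was slightly lower on both C66 arrays, and the epithelial sum was higher on both.

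The probe set of DPPA3 itself did not separate the clone from its control. DPPA3 read 2.55 and 2.82 in C66 against 2.68 and 3.03 in the scrambled control. The groups overlapped. The log2 difference, C66 minus scrambled, was -0.16 (SE 0.37, adjusted p = 0.971, limma), and without the second scrambled array it was 0.0093. A CRISPR edit need not lower the RNA, and this probe set therefore does not check the label. The 5 measured genes on either side of DPPA3 on chromosome 12, from PEX5 to FOXJ2, differed by -0.14 to 0.21 on the log2 scale and none passed (adjusted p 0.764 to 0.998, limma). Among them GDF3, a TGF-beta family ligand of the same early embryonic gene cluster, read 2.17 and 2.36 in C66 against 2.31 and 2.27 in the scrambled control, and SLC2A3, a glucose transporter, read 2.69 and 2.74 in C66 against 2.59 and 2.42 in the scrambled control.

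Across the profile, 250 of 17448 genes (1.43%) passed at an adjusted p under 0.05 in C66, 152 of them higher (0.871%) and 98 lower (0.562%). The log2 differences of these genes ran from 0.42 to 2.28 in size, with a median of 0.74, and 56 were at least 2-fold, 37 higher and 19 lower. At an unadjusted p under 0.05 there were 1666 genes. In all 250 the arrays of C66 and of the scrambled control did not overlap, which was also true of 42.9% of all genes. Among genes above the median level 192 of 8724 passed (2.2%), against 58 of 8724 at or under it (0.665%). Each array mattered: without the first or second C66 array 119 and 116 genes passed, and without the first or second scrambled array 120 and 89.

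**Figure D1:**
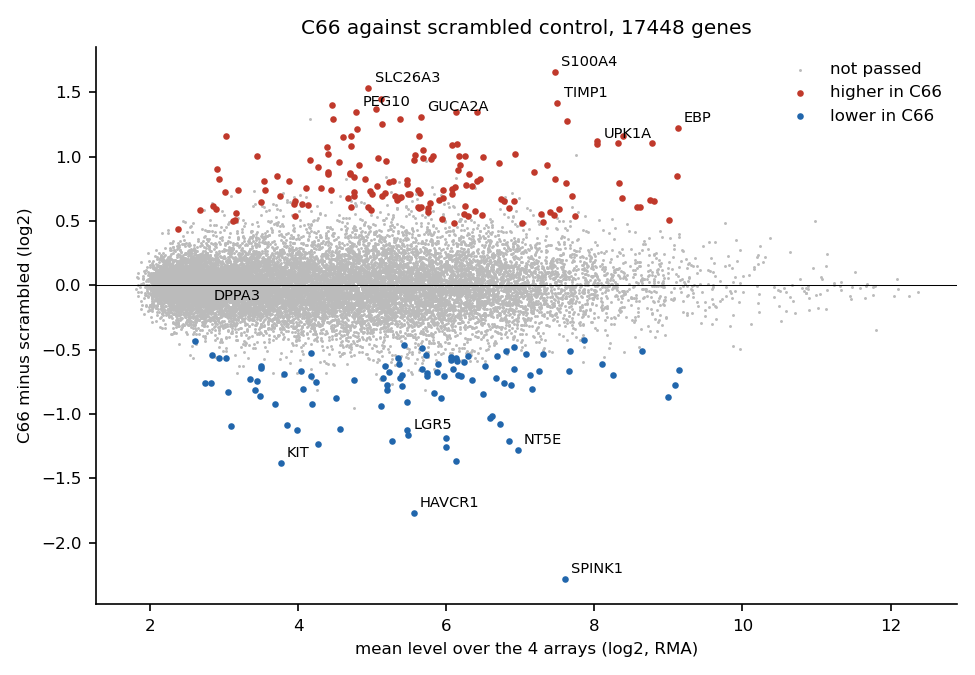
Log2 difference of each of 17448 genes, C66 minus scrambled control, against its mean log2 level over the 4 arrays. Coloured points are the 152 higher and 98 lower genes that passed, and grey points the rest; SPINK1 lies lowest at -2.28 and S100A4 highest at 1.66, while DPPA3 sits among the grey points.

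S100A4 and SPINK1 marked the extremes. S100A4, a calcium-binding protein linked to cell motility, read 8.38 and 8.20 in C66 against 6.52 and 6.76 in the scrambled control, a difference of 1.66 (SE 0.16, adjusted p = 9.97e-07), or 3.15-fold. SPINK1, a secreted trypsin inhibitor, read 6.45 and 6.47 in C66 against 8.74 and 8.74 in the scrambled control, a difference of -2.28 (SE 0.20, adjusted p = 3.39e-07), so that the scrambled control was 4.86-fold above C66. Both passed in every alternative fit. They belong to the 12 highest and 12 lowest differences, a choice that required non-overlapping arrays and a level above the median in the higher group, so neither feature is a finding for these 24 genes. In C75 the levels were 6.47 and 6.79 for S100A4 and 8.19 and 8.27 for SPINK1, both nearer to the control than to C66.

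The sequences upstream of 4 of the leading genes are shown beside a count of CpG, the dinucleotide that carries DNA methylation, in the promoters of the called genes. Each line gives the 250 bases before the first-listed transcription start in RefSeq (GRCh38.p14), read 5′ to 3′ on the gene's own strand, with each CG in capitals; the positions are chr1:153545807-153546056 on the minus strand for S100A4, chr7:107803224-107803473 on the minus strand for SLC26A3, chrX:47582186-47582435 on the plus strand for TIMP1 and chr5:147831672-147831921 on the minus strand for SPINK1.
S100A4: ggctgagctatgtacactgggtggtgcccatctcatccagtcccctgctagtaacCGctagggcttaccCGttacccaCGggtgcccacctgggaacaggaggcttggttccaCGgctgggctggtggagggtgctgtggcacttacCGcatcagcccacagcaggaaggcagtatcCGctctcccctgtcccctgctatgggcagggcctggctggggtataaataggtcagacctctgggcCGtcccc
SLC26A3: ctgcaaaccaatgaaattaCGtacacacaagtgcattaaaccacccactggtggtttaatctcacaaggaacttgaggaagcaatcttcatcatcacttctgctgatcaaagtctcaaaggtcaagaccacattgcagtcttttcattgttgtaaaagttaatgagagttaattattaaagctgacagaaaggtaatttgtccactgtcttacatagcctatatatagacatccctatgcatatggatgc
TIMP1: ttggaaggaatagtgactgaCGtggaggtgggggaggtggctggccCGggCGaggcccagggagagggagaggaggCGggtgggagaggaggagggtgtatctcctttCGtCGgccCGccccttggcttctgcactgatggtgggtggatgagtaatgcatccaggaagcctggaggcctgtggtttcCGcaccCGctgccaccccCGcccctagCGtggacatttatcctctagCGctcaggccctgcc
SPINK1: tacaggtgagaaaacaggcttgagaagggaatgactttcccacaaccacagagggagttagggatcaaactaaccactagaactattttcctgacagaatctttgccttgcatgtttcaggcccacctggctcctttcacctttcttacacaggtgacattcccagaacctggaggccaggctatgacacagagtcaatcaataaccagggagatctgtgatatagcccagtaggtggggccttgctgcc
The windows hold 7 CG in S100A4, 1 in SLC26A3, 12 in TIMP1 and 0 in SPINK1.

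Counted over 300 bases (250 before the start and 50 after), these promoters had 8, 1, 16 and 1 CG in the order S100A4, SLC26A3, TIMP1 and SPINK1. CG reads the same on both strands, and 98.2% of all matched promoters of this length hold at least 1. The median was 23 over 13627 of 16718 protein-coding genes tested, the share matched in the promoter table being 81.5%. Of the genes higher in C66, 122 of 149 protein-coding ones were matched, with a median of 17 CG and 57.4% having 10 or more. Of the genes lower in C66, 86 of 96 were matched, with a median of 27 and 80.2% having 10 or more, against 75.6% of all matched genes and 90.3% of those above the median level. Outside the chromosome segments described below, 45 of 54 lower genes were matched, with a median of 20 and 68.9% having 10 or more, below the share of all matched genes. Of the higher genes outside the segments 73 of 97 were matched (75.3%), under 80%, so their count is not used. The figures for all higher genes above include them, and so mix genes inside and outside the segments. Genes above the median level in the segments had a median of 26, with 89.6% having 10 or more. DNA methylation was not measured here.

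The other genes among the 12 highest differed in function. SLC26A3, the chloride and bicarbonate exchanger of colonic surface cells, read 5.68 and 5.75 in C66 against 4.11 and 4.26 in the scrambled control (difference 1.53, SE 0.20, adjusted p = 7.38e-05). SLC9A4, a sodium and hydrogen exchanger, read 5.90 and 5.79 in C66 against 4.45 and 4.33 in the scrambled control (difference 1.45, adjusted p = 2.71e-06). In both, the C66 arrays stood more than 1 log2 unit above the control arrays. CACNA1E, a subunit of voltage-gated calcium channels, read 5.20 and 5.12 in C66 against 3.60 and 3.91 in the scrambled control (difference 1.40, adjusted p = 1.03e-05). TNNC1, the calcium-binding troponin C of heart and slow muscle, read 7.14 and 7.05 in C66 against 5.79 and 5.70 in the scrambled control (difference 1.34, adjusted p = 1.11e-05). PCP4, a small regulator of calmodulin, read 6.80 and 6.82 in C66 against 5.56 and 5.36 in the scrambled control (difference 1.35, adjusted p = 0.000334). Both C66 arrays of CACNA1E and PCP4, like those of TNNC1, lay more than 1 log2 unit above the higher control array.

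TIMP1, a secreted inhibitor of matrix metalloproteinases, read 8.25 and 8.18 in C66 against 6.91 and 6.68 in the scrambled control (difference 1.42, SE 0.21, adjusted p = 0.000204). PEG10, an imprinted gene derived from a retrotransposon, read 5.50 and 5.43 in C66 against 4.22 and 4.01 in the scrambled control (difference 1.35, adjusted p = 0.000225). GUCA2A, which encodes the gut hormone guanylin, read 6.43 and 6.20 in C66 against 4.98 and 5.03 in the scrambled control (difference 1.31, adjusted p = 6.14e-05). These 3 were higher by more than 1 log2 unit on both arrays. DKK4, a secreted Wnt inhibitor that is itself a Wnt target, read 4.90 and 5.34 in C66 against 3.98 and 3.68 in the scrambled control (difference 1.29, adjusted p = 0.00104). PCID2, a protein of mRNA export, read 6.13 and 5.91 in C66 against 4.99 and 4.46 in the scrambled control (difference 1.29, adjusted p = 0.00655), and PQBP1, a protein tied to splicing, read 8.14 and 8.40 in C66 against 7.17 and 6.81 in the scrambled control (difference 1.28, adjusted p = 7e-05). PCID2, TIMP1 and PQBP1 lay in chromosome segments that were shifted as a whole (below). The call of DKK4 was lost without the second C66 or the second scrambled array (adjusted p up to 0.0542), and that of PCID2 without the first C66 or the second scrambled array (up to 0.212).

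The 12 genes that fell most included surface receptors, enzymes and 2 stem cell markers. HAVCR1, a receptor for phosphatidylserine on dying cells, read 4.62 and 4.73 in C66 against 6.65 and 6.24 in the scrambled control (difference -1.77, SE 0.23, adjusted p = 5.5e-05). KIT, the receptor for stem cell factor, read 3.31 and 2.85 in C66 against 4.65 and 4.26 in the scrambled control (difference -1.38, adjusted p = 0.000569). IL37, an anti-inflammatory cytokine of the interleukin-1 family, read 5.36 and 5.56 in C66 against 6.91 and 6.73 in the scrambled control (difference -1.36, adjusted p = 0.000519). The largest of these 3 differences was that of HAVCR1. NT5E, the ectoenzyme CD73 that makes adenosine from AMP, read 6.27 and 6.38 in C66 against 7.62 and 7.59 in the scrambled control (difference -1.28, adjusted p = 2.77e-05). IRF8, a transcription factor best known from myeloid and B cells, read 4.61 and 4.70 in C66 against 6.02 and 5.71 in the scrambled control (difference -1.21, adjusted p = 0.00106). FABP6, the ileal bile acid-binding protein, read 6.05 and 6.44 in C66 against 7.41 and 7.505 in the scrambled control (difference -1.21, adjusted p = 0.000108). A2ML1, a protease inhibitor of the alpha-2-macroglobulin family, also fell, with 3.45 and 3.39 in C66 against 4.77 and 4.33 in the scrambled control (difference -1.13, adjusted p = 0.000276).

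STEAP1, a membrane protein of prostate and other epithelial tumours, read 3.65 and 3.66 in C66 against 4.71 and 5.05 in the scrambled control (difference -1.23, adjusted p = 0.017), and its call was lost when any 1 of the 4 arrays was left out (adjusted p up to 0.252). RNASE2CP is annotated as a pseudogene of the RNase family, so its probes may also bind related transcripts; it read 5.34 and 5.47 in C66 against 6.64 and 6.54 in the scrambled control (difference -1.19, adjusted p = 0.000272). The remaining genes among the 12 lowest, SMOC2 and LGR5, belong to the stem cell list and are given with it. Of these 24 leading genes, 21 passed in every alternative fit that tested them and with any 1 array left out, the exceptions being STEAP1, PCID2 and DKK4. SLC26A3, CACNA1E and A2ML1 lie at or under the median level and were not in the fit of genes above it.

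**Figure D2:**
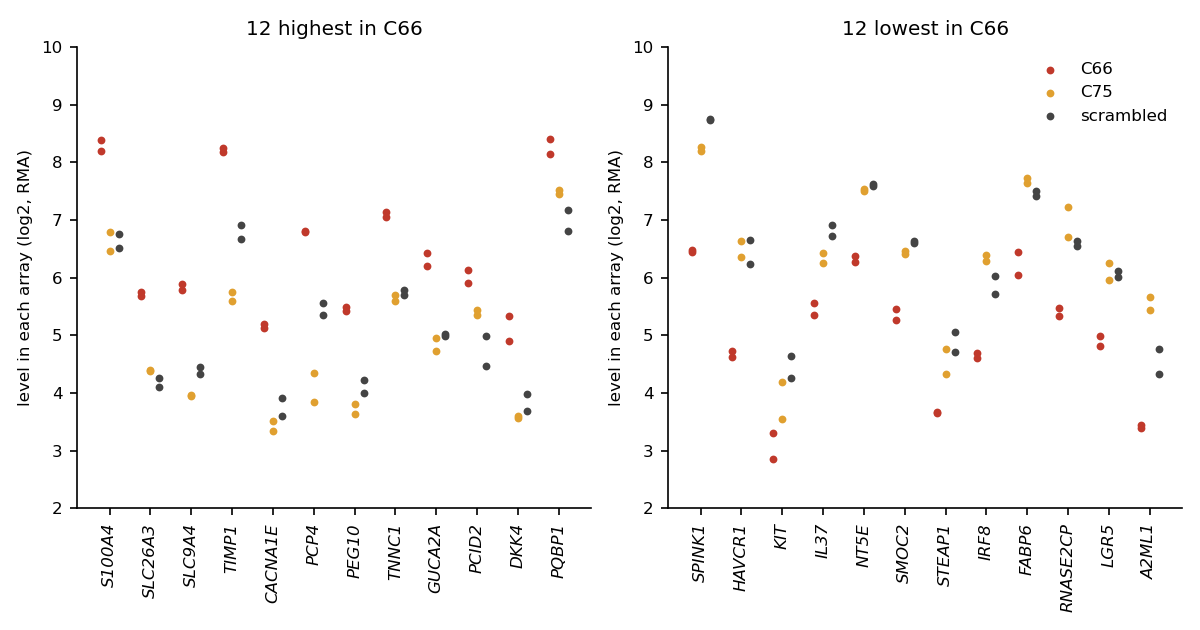
Log2 level on each array for the 12 genes with the highest and the 12 with the lowest difference in C66, with C66 in red, C75 in yellow and the scrambled control in dark grey. The genes were chosen for C66 points that lie apart from the control points; S100A4 has its C75 points beside the control, while PCP4 and TIMP1 have theirs below it.

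The crypt genes did not move as a block. Of 22 measured Wnt targets and intestinal stem cell genes, 2 were higher and 2 lower in C66, with a median difference of -0.10 against -0.0080 over all genes. Of all genes, 0.871% were higher and 0.562% lower. LGR5, the R-spondin receptor that marks crypt-base stem cells, read 4.82 and 4.98 in C66 against 6.12 and 6.005 in the scrambled control (difference -1.16, SE 0.14, adjusted p = 2.07e-05). SMOC2, a secreted matrix protein of the same stem cell signature, read 5.46 and 5.27 in C66 against 6.64 and 6.61 in the scrambled control (difference -1.26, SE 0.20, adjusted p = 0.000471). Both stem cell genes were lower on each C66 array than on either control array, which the choice of the 12 lowest genes required. AXIN2, the feedback inhibitor induced by Wnt signalling, read 7.57 and 7.54 in C66 against 7.10 and 7.02 in the scrambled control (difference 0.49, adjusted p = 0.0462), and LEF1, a transcription factor that acts with beta-catenin, read 5.52 and 5.39 in C66 against 4.81 and 4.55 in the scrambled control (difference 0.78, adjusted p = 0.00422). AXIN2 lost its call without any 1 of the 4 arrays and with the replicate number as a block. It was also lost with the knockout arrays alone (C66, C75 and scrambled) and with the 4 arrays alone. LEF1 lost its call without the first C66 or the second scrambled array. In bulk RNA, fewer cells of a type and less of its RNA per cell cannot be told apart.

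**Figure D3:**
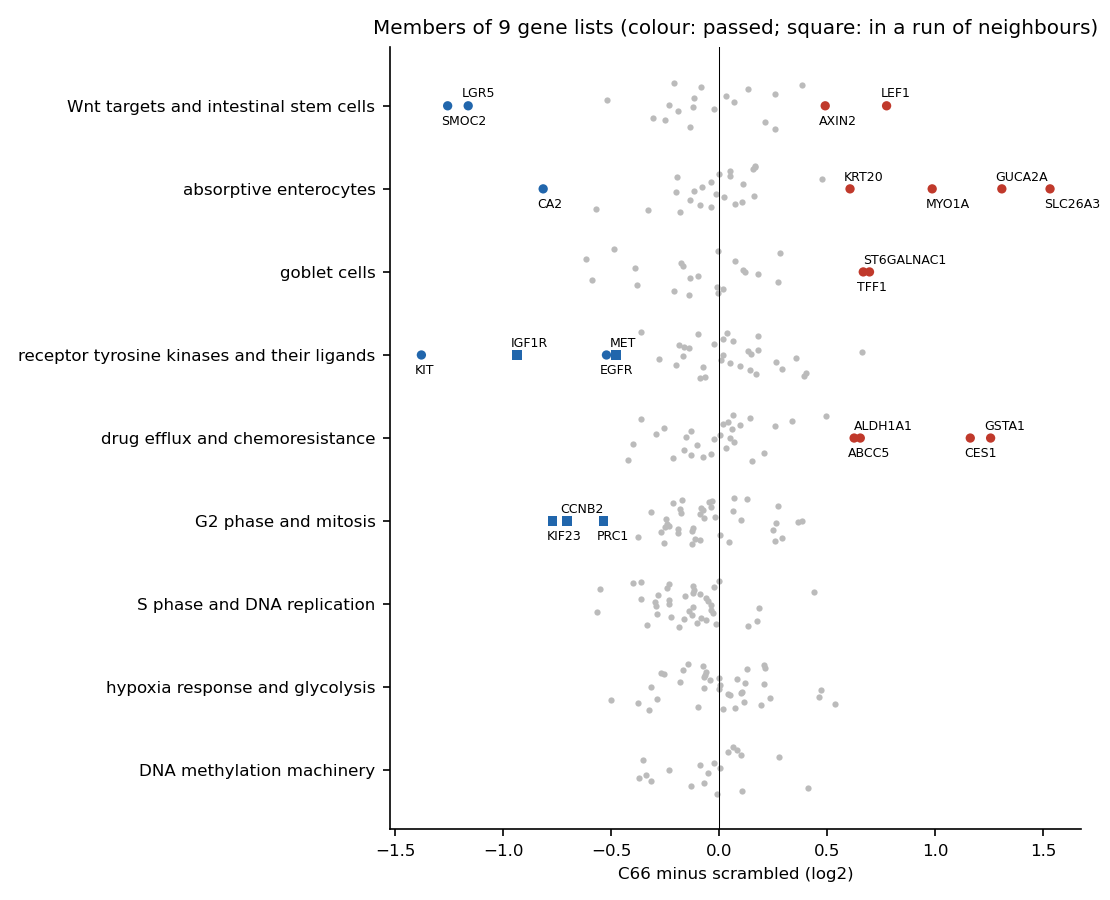
Log2 difference, C66 minus scrambled control, of each measured member of 9 gene lists, with passed members in red (higher) or blue (lower), squares for members inside a shifted chromosome segment, and the rest in grey. LGR5 and SMOC2 lie at the left of the stem cell list and SLC26A3 and GUCA2A at the right of the enterocyte list, while no member of the S phase, hypoxia or DNA methylation lists is coloured.

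Of 29 absorptive enterocyte genes, 4 were higher and 1 lower, with a list median of 0.02. Of all genes, 0.871% were higher and 0.562% lower, the shares to set beside this list and the goblet cell list below. Besides SLC26A3 and GUCA2A, MYO1A, a motor protein of the brush border, read 6.23 and 6.14 in C66 against 5.27 and 5.13 in the scrambled control (difference 0.99, adjusted p = 0.000366). KRT20, a keratin of differentiated colonic cells and one of the epithelial markers above, read 9.09 and 8.75 in C66 against 8.42 and 8.21 in the scrambled control (difference 0.61, adjusted p = 0.0415). CA2, a carbonic anhydrase of surface colonocytes, went the other way, with 3.20 and 2.83 in C66 against 3.85 and 3.81 in the scrambled control (difference -0.81, adjusted p = 0.00894). KRT20 was lost without the first C66 array or either scrambled array, and also with the knockout arrays alone and with the 4 arrays alone. CA2 was lost without the second C66 array or either scrambled array. Among 23 goblet cell genes 2 were higher, the mucosal peptide TFF1 with 7.11 and 7.05 in C66 against 6.44 and 6.38 in the scrambled control and the mucin sialyltransferase ST6GALNAC1 with 5.70 and 5.61 in C66 against 5.001 and 4.92 in the scrambled control. Their differences were 0.67 (adjusted p = 0.0173) and 0.70 (adjusted p = 0.00797), and each lost its call without any 1 of the 4 arrays (adjusted p up to 0.189 and 0.132), TFF1 also with the block. No member of the enteroendocrine and Paneth cell list (24 measured, 1 at an unadjusted p under 0.05), of the 13 mucins (4 at that level) or of the claudin and junction list (25 measured, 2 at that level) passed in limma.

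The calls among receptor tyrosine kinases and their ligands were all lower. Of 35 measured receptors and ligands, 4 were lower and 0 higher, against 0.562% of all genes lower and 0.871% higher. The list median was 0.02, with 19 members above 0 and 16 below. Besides KIT, the insulin-like growth factor receptor IGF1R read 4.88 and 4.42 in C66 against 5.61 and 5.55 in the scrambled control (difference -0.94, adjusted p = 0.00725). The hepatocyte growth factor receptor MET read 6.63 and 6.72 in C66 against 7.19 and 7.11 in the scrambled control (difference -0.48, adjusted p = 0.0464), and the epidermal growth factor receptor EGFR read 3.85 and 3.98 in C66 against 4.39 and 4.48 in the scrambled control (difference -0.52, adjusted p = 0.0475); EGFR was named after its values were seen. KIT passed in every alternative. IGF1R lost its call without the second C66 array or either scrambled array, and MET and EGFR without any 1 of the 4 arrays. MET and EGFR were also lost with the 4 arrays alone, and EGFR under a trended robust prior. MET was further lost with the knockout arrays alone, after centring and with the replicate number as a block. IGF1R lies in the shifted segment of chromosome 15 and MET in that of chromosome 7.

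The calls among genes of drug handling were all higher. Of 33 measured members, 4 passed and all 4 were higher, against 0.871% of all genes higher. The list median was 0.03, with 19 members above 0 and 14 below. GSTA1, a glutathione transferase whose probes may also bind its near-identical family members, read 5.79 and 5.75 in C66 against 4.39 and 4.63 in the scrambled control (difference 1.26, adjusted p = 0.0031). CES1, a carboxylesterase that hydrolyses ester drugs, read 8.81 and 9.12 in C66 against 7.94 and 7.66 in the scrambled control (difference 1.16, adjusted p = 0.00107). ALDH1A1, a retinaldehyde dehydrogenase often used as a marker of tumour-initiating cells, read 9.15 and 9.11 in C66 against 8.54 and 8.41 in the scrambled control (difference 0.65, adjusted p = 0.00331). The fourth, the efflux transporter ABCC5, was named after its values were seen and read 4.47 and 4.44 in C66 against 3.78 and 3.88 in the scrambled control (difference 0.63, adjusted p = 0.0142). All 4 lost their call without at least 1 array: GSTA1 without the first scrambled array (adjusted p up to 0.0758), CES1 without the second C66 or second scrambled array (0.0577), ALDH1A1 without the first C66 or second scrambled array (0.0919) and ABCC5 without any 1 (0.173).

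The calls in the cell cycle lists were all of genes on chromosome 15. Of 43 genes of G2 phase and mitosis, 3 were lower and 0 higher (median -0.09), against 0.562% of all genes lower, namely KIF23, CCNB2 and PRC1. KIF23, a kinesin of the midzone in dividing cells, read 6.51 and 6.47 in C66 against 7.35 and 7.16 in the scrambled control (difference -0.77, adjusted p = 0.00197). CCNB2, a mitotic cyclin, read 5.91 and 5.78 in C66 against 6.61 and 6.49 in the scrambled control (difference -0.71, adjusted p = 0.0173), and PRC1, the midzone partner of KIF23, read 7.01 and 7.08 in C66 against 7.58 and 7.57 in the scrambled control (difference -0.54, adjusted p = 0.00892). All 3 lie in the shifted segment of chromosome 15, as does BLM, a DNA helicase and the 1 member of 23 recombination and Fanconi repair genes that passed. BLM read 4.78 and 4.80 in C66 against 5.53 and 5.68 in the scrambled control (difference -0.81, adjusted p = 0.000569). KIF23 lost its call without the first scrambled array, and CCNB2 and PRC1 without any 1 of the 4 arrays. PRC1 was also lost with the 4 arrays alone. In the S phase list 0 of 40 genes passed and 8 had an unadjusted p under 0.05 (limma). Yet 36 of 40 (90%) were below 0, against 52.2% of all genes, with a median of -0.12. The list's median level did not separate the groups, at 5.49 and 5.30 on the C66 arrays against 5.47 and 5.43 on the scrambled arrays. MKI67, a protein of all cycling cells, read 7.34 and 7.32 in C66 against 7.27 and 7.27 in the scrambled control, with a difference of 0.06 (adjusted p = 0.969).

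Hypoxia genes and the methylation machinery held no call in the clone. Of the 38 hypoxia and glycolysis genes 0 passed in limma and 4 had an unadjusted p under 0.05, with a median difference of 0.0016. Of the 14 HIF subunits and oxygen sensors 0 passed (2 unadjusted), and of 19 genes of the DNA methylation machinery 0 passed (3 unadjusted), with medians of 0.03 and -0.02. HIF1A, the oxygen-regulated subunit of HIF-1, read 6.65 and 6.38 in C66 against 6.67 and 6.59 in the scrambled control (difference -0.12, SE 0.17, adjusted p = 0.944), and its target VEGFA read 7.89 and 7.76 in C66 against 8.12 and 7.82 in the scrambled control (difference -0.14, SE 0.17, adjusted p = 0.912). UHRF1 read 4.47 and 4.15 in C66 against 4.26 and 3.81 in the scrambled control (difference 0.28, SE 0.21, adjusted p = 0.796) and DNMT1 read 6.09 and 6.10 in C66 against 6.16 and 6.05 in the scrambled control (difference -0.01, SE 0.11, adjusted p = 0.995). The arrays of both groups overlapped in all 4 of these genes. The cell cycle inhibitor CDKN1A read 4.26 and 4.33 in C66 against 4.43 and 4.22 in the scrambled control (difference -0.03, adjusted p = 0.991); of 28 CDK inhibitors and quiescence genes 0 passed (1 unadjusted), and of 22 p53 targets 0 passed (2 unadjusted). The median SE over all genes was 0.15 on the log2 scale, so small differences could not be called with 2 arrays a group.

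Germ cell genes, the setting in which DPPA3 normally acts, stayed uncalled as a list. In limma 0 of 25 germline and cancer-testis genes passed, with 1 at an unadjusted p under 0.05. The median level of this list was low, at 2.45 and 2.52 on the C66 arrays and 2.51 and 2.52 on the scrambled arrays. Only 0.665% of genes at or under the median level of all genes passed, so the absence of calls does not show an absence of change. Among 21 pluripotency and early germ cell factors, KIT was lower and PRDM1, a repressor needed for primordial germ cells, was higher, with 3.83 and 3.81 in C66 against 3.14 and 3.21 in the scrambled control (difference 0.65, adjusted p = 0.0353). PRDM1 lost its call without any 1 of the 4 arrays and with the replicate block (adjusted p up to 0.255). Of 26 imprinted genes PEG10 alone passed, and the list median was -0.00094. The shares of all genes to set beside these calls were 0.871% higher and 0.562% lower. No gene among 27 HOX genes passed (3 unadjusted), nor among 16 clustered protocadherins (1 unadjusted). Of these 16, 14 were above 0, with a median of 0.12, where 52.2% of all genes were below 0. Their median level was low, at 2.55 and 2.65 on the C66 arrays against 2.48 and 2.51 on the scrambled arrays. The median level of all genes was 4.09.

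The lists of secreted protease inhibitors, S100 proteins, CEACAM genes and keratins held 1 to 3 calls each, and SPINK1 was the only lower one. Of all genes, 1.43% passed. Among 24 secreted protease inhibitors, TIMP1 and SERPINB5 were higher and SPINK1 lower. SERPINB5, known as maspin, read 3.31 and 3.89 in C66 against 2.52 and 2.37 in the scrambled control (difference 1.16, adjusted p = 0.000662), and it lost its call without the second C66 array (adjusted p = 0.0542). Of 19 S100 proteins, S100A14 passed beside S100A4, with 8.09 and 7.94 in C66 against 7.47 and 7.48 in the scrambled control (difference 0.54, adjusted p = 0.0429). The S100A14 call was lost without any 1 of the 4 arrays, with the block and with the 4 arrays alone. CEACAM7, an adhesion molecule of the colonic surface and the 1 of 11 CEACAM genes that passed, read 8.96 and 8.78 in C66 against 7.85 and 7.68 in the scrambled control (difference 1.11, adjusted p = 0.00795), lost without the first C66 or second scrambled array (0.139). Of 48 keratins, KRT23 was higher beside KRT20, with 5.09 and 4.596 in C66 against 3.89 and 4.02 in the scrambled control (difference 0.88, adjusted p = 0.0435), a call lost without the first C66 array or either scrambled array (0.514).

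Signalling and stress lists each held 1 or 2 calls, where 1.43% of all genes passed. JUN, a subunit of the AP-1 factor, read 3.69 and 3.64 in C66 against 4.67 and 4.27 in the scrambled control (difference -0.80, adjusted p = 0.00469), and SPRY2, a feedback inhibitor of MAPK signalling, read 6.05 and 5.89 in C66 against 5.36 and 5.36 in the scrambled control (difference 0.61, adjusted p = 0.0484), as the 2 calls among 29 immediate early and feedback genes. ID1, a target of BMP signalling, read 5.41 and 5.41 in C66 against 6.13 and 6.04 in the scrambled control (difference -0.68, adjusted p = 0.00926), the 1 call among 22 genes of its pathway. TGFBI, a matrix protein induced by TGF-beta, read 6.89 and 6.95 in C66 against 7.59 and 7.59 in the scrambled control (difference -0.67, adjusted p = 0.00429), the 1 call among 23 genes of epithelial-mesenchymal transition. The C66 and control arrays did not overlap in any of these 4 genes, as in all 250 genes that passed and in 42.9% of all genes. The interferon-induced IFI27 read 5.10 and 5.17 in C66 against 4.16 and 4.36 in the scrambled control (difference 0.88, adjusted p = 0.0254) and OAS1 read 8.93 and 8.82 in C66 against 8.47 and 8.07 in the scrambled control (difference 0.61, adjusted p = 0.0149), the 2 calls of 36 in that list. The zinc-binding MT1F, whose probes may also bind near-identical metallothioneins, read 8.61 and 8.78 in C66 against 9.38 and 9.56 in the scrambled control (difference -0.77, adjusted p = 0.00475); 9 of the 10 metallothioneins were below 0, with a median of -0.20. SPRY2, ID1 and IFI27 lost their calls without any 1 of the 4 arrays (adjusted p up to 0.392, 0.135 and 0.266), SPRY2 also under a trended robust prior. JUN was lost without the second C66 or first scrambled array, and TGFBI without the first C66 or either scrambled array. OAS1 was lost without either C66 array or the second scrambled array, and also with the knockout arrays alone and with the 4 arrays alone. MT1F was lost without the first C66 or second scrambled array.

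Counts in the large gene families are set against the 1.43% of all genes that passed. Of 463 zinc finger genes of the ZNF family 5 were higher and 2 lower. The higher genes were ZNF182 (0.98, adjusted p = 0.000901), ZNF81 (0.87, 0.00202) and ZNF41 (0.76, 0.00388) on the X chromosome, and ZNF738 (0.61, 0.00323) and ZNF790 (0.62, 0.021) on chromosome 19; ZNF41 and ZNF790 were named after their values were seen. The lower genes were ZNF592 on chromosome 15 (-0.70, adjusted p = 0.0101) and ZNF800 on chromosome 7 (-0.55, 0.0197). All but ZNF182 lost their call when 1 array was left out. ZNF81 lost it without the first scrambled array, and ZNF41 and ZNF738 without the first C66 or second scrambled array. ZNF790 lost it without the second C66 or either scrambled array, and ZNF592 without the first C66 or either scrambled array. ZNF800 lost it without either C66 or the first scrambled array. ZNF790 and ZNF800 were also lost with the 4 arrays alone, and ZNF800 with the knockout arrays alone. Of 143 small nucleolar and Cajal body RNAs SNORA70B alone passed, with a difference of 1.01 (adjusted p = 0.0283), and of 64 cytosolic ribosomal protein genes RPS27L alone, with -0.61 (adjusted p = 0.0475). Both were lost without any 1 of the 4 arrays and with the replicate block, and RPS27L also after centring.

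A metabolic list and a stress list had their 1 call inside a shifted segment. The share of all genes that passed was 1.43%. EBP, a sterol isomerase and the 1 call among 27 genes of cholesterol and fatty acid synthesis, read 9.75 and 9.72 in C66 against 8.56 and 8.47 in the scrambled control (difference 1.22, adjusted p = 0.000662). DNAJC3, a co-chaperone and the 1 call among 32 genes of the unfolded protein response, read 7.56 and 7.56 in C66 against 7.11 and 6.89 in the scrambled control (difference 0.56, adjusted p = 0.0219), and was lost without either C66 array, without the second scrambled array and with the block (up to 0.366). EBP lies in the shifted segment of the X chromosome and DNAJC3 and SPRY2 in that of chromosome 13. In all, 23 of the 46 lists had no call in limma, with 68 of their 938 members at an unadjusted p under 0.05, and list medians ran from -0.20 to 0.12.

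The calls were not spread evenly over the genome. In chromosome order, a running median over 21 neighbouring genes above the median level passed 0.3 in size in 4 segments, a threshold chosen after the data were seen, so the segments are described without a test. They held 332 of the 8720 ordered genes, and 611 genes with those at or under the median level. Of the 250 calls, 97 (38.8%) lay within the segments, leaving 153 outside them, 98 higher and 55 lower. Of the 56 genes changed at least 2-fold, 15 lay inside. Outside the segments 0.909% of all genes passed. Segments were drawn from the same differences as the calls, so these shares do not test an uneven spread. Over whole chromosomes, 13.2% of genes above the median level passed on chromosome 13, 14.1% on chromosome 15 and 12.5% on the X chromosome. On the other autosomes that share ran from 0% to 3.37%.

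**Figure D4:**
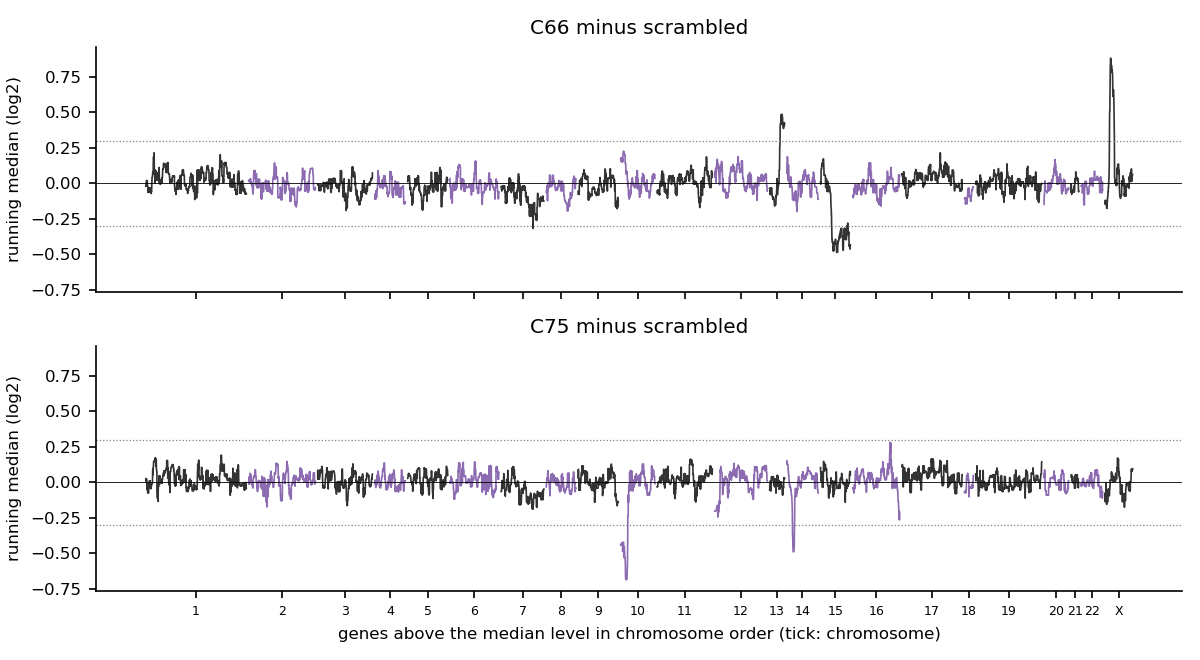
Running median over 21 genes of the log2 difference from the scrambled control, for C66 (top) and C75 (bottom), over genes above the median level in chromosome order, with alternating colours for chromosomes and dotted lines at 0.3 in either direction. The C66 line goes above the dotted line on chromosomes 13 and X and below it on 15 and briefly 7, and the C75 line goes below it on 10 and 14.

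The widest segment was the distal part of chromosome 15, from MYO5C to TARS3. There 171 of 186 genes above the median level were below 0, with a median of -0.39, and 40 (21.5%) were lower. Of all genes above the median level, 2.2% passed in either direction, the share to set beside each segment. SLCO3A1, an organic anion transporter, read 4.30 and 3.72 in C66 against 5.18 and 5.08 in the scrambled control (difference -1.12, adjusted p = 0.000276). RCN2, a calcium-binding protein of the endoplasmic reticulum, read 6.76 and 6.75 in C66 against 7.51 and 7.61 in the scrambled control (difference -0.80, adjusted p = 0.000794), and HACD3, an enzyme of very long chain fatty acid synthesis, read 7.98 and 7.84 in C66 against 8.56 and 8.65 in the scrambled control (difference -0.70, adjusted p = 0.00107). BLM, KIF23, CCNB2, PRC1 and IGF1R belong to the same segment. Genes of it at or under the median level had a median of -0.06.

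On the X chromosome, 63 genes above the median level from DYNLT3 to MAGED2 had a median of 0.59, a 1.51-fold rise, and 31 (49.2%) were higher and none lower. MAGED1, an adaptor of the melanoma antigen family, read 6.65 and 6.74 in C66 against 5.51 and 5.68 in the scrambled control (difference 1.10, adjusted p = 7.87e-05). MAOA, the monoamine oxidase A enzyme, read 7.36 and 7.51 in C66 against 6.41 and 6.41 in the scrambled control (difference 1.02, adjusted p = 8.24e-05), and GRIPAP1, a protein of endosome recycling, read 6.27 and 6.17 in C66 against 5.26 and 5.07 in the scrambled control (difference 1.06, adjusted p = 6.21e-05). Each had its C66 arrays apart from those of the control, as did TIMP1, PQBP1 and EBP of the same segment. That was so in all 250 genes that passed. Genes of it at or under the median level had a median of 0.02.

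On chromosome 13, 60 genes above the median level from OLFM4 to CHAMP1 had a median of 0.41, and 19 (31.7%) were higher and none lower. LAMP1, a membrane protein of lysosomes, read 8.003 and 8.02 in C66 against 7.17 and 7.26 in the scrambled control (difference 0.80, adjusted p = 9.22e-05). DOCK9, an activator of CDC42, read 6.75 and 6.56 in C66 against 5.85 and 5.60 in the scrambled control (difference 0.93, adjusted p = 0.000272), and RAP2A, a small GTPase, read 6.80 and 6.40 in C66 against 5.75 and 5.66 in the scrambled control (difference 0.90, adjusted p = 0.000569). A short stretch of chromosome 7 from DNAJB9 to GCC1, with 23 genes, had a median of -0.31 and 2 calls, but C75 stood at -0.17 there. That stretch had a median of -0.19 without the first scrambled array and was absent with a running median over 41 genes, whereas the other 3 segments were found again over wider bounds, with medians of 0.32 on chromosome 13, -0.37 on chromosome 15 and 0.36 on the X chromosome. The genes named in these segments were chosen after their values were seen.

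The shifts were a feature of C66 among all arrays. Taking each gene's deviation from the mean of the 22 arrays that are not C66, the median over the chromosome 15 segment was -0.36 and -0.38 on the C66 arrays, against -0.07 to 0.08 on the other 22. The X segment gave 0.57 and 0.56 on the C66 arrays, against -0.06 to 0.14 elsewhere, and the chromosome 13 segment gave 0.35 and 0.33, against -0.08 to 0.08. No other array came near those of C66. The segments were drawn from the C66 minus scrambled differences, however, so part of this gap was fixed by that choice. On chromosome 7 the values of -0.23 and -0.13 on the C66 arrays overlapped the range of -0.19 to 0.17 of the other arrays. In C75 against the scrambled control the medians were -0.0076, 0.01 and -0.02 for the segments of chromosomes 15, X and 13. Copy number was not measured, and its part in these shifts was not tested.

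**Figure D5:**
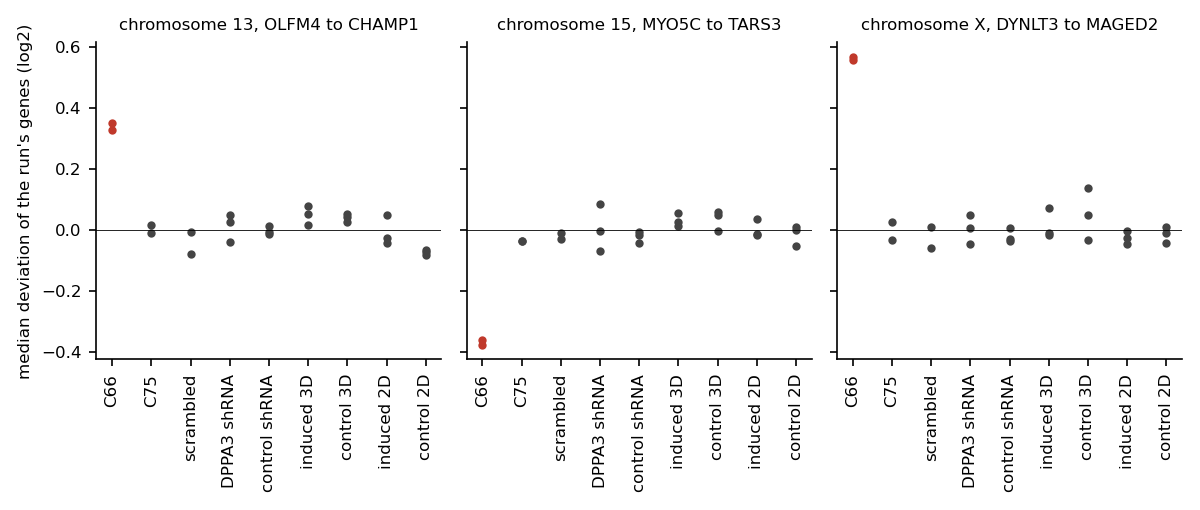
Median log2 deviation of the genes of the chromosome 13, 15 and X segments from the mean of the 22 arrays that are not C66, with 1 point per array. The C66 arrays (red) lie at 0.33 and 0.35, at -0.38 and -0.36 and at 0.56 and 0.57, and all other groups (dark grey) lie between -0.08 and 0.14. The segments were chosen by the C66 differences.

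Set directly against the sister clone C75, so that the scrambled control drops out, C66 differed in 506 genes (2.9%), 345 higher (1.98%) and 161 lower (0.923%) in C66. Without 1 array of either clone the count was 259 to 270. Of the 250 genes that set C66 apart from the scrambled control, 177 also differed between the clones, among them 22 of the 24 leading genes; STEAP1 and PCID2 did not pass. Of the 506, 116 lay in the segments of C66 and 66 in segments shifted in C75, on chromosome 10 from ZMYND11 to MAPK8 (83 genes, median 0.14 in C66 and -0.49 in C75) and on chromosome 14 from CIDEB to RPS29 (38 genes, -0.06 in C66 and -0.23 in C75). Both clones share their control arrays, so their differences from it are given side by side.

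In several of the genes with the largest differences between the clones, C66 and C75 lay on opposite sides of the control. UPK1A, a uroplakin of bladder epithelium, read 8.61 and 8.56 in C66 against 5.79 and 5.70 in C75 and 7.59 and 7.39 in the scrambled control (C66 minus C75 2.84, adjusted p = 1.1e-12). NELL2, a secreted glycoprotein of neurons, read 7.80 and 7.85 in C66 against 5.19 and 4.98 in C75 and 6.89 and 6.89 in the scrambled control (C66 minus C75 2.74, adjusted p = 1.73e-08). GABRA2, a subunit of GABA receptors, read 2.49 and 2.60 in C66 against 5.05 and 5.07 in C75 and 3.69 and 3.59 in the scrambled control (C66 minus C75 -2.51, adjusted p = 2.65e-12). In each the control lay between the clones. PCP4 and TIMP1 were 2.71 and 2.54 higher in C66 than in C75 (adjusted p = 6.08e-09 and 1.25e-08), with C75 at 3.85 and 4.34 for PCP4 and at 5.75 and 5.60 for TIMP1. A2ML1 was lower in C66 than in C75 (C66 minus C75 -2.13, adjusted p = 8.99e-09), with C75 at 5.67 and 5.44, above the control. HAVCR1 and SPINK1 were next among the genes lower in C66 named by this difference, at -1.82 and -1.77 (adjusted p = 8.71e-06 and 2.32e-06), with C75 differing from the control by 0.05 and -0.51 (adjusted p = 0.997 and 0.425). Against the scrambled control, NELL2 lost its call in C66 without any 1 of the 4 arrays (adjusted p up to 0.217).

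ID1 and LY6G6D moved the same way against the control in both clones while C66 did not pass against C75. ID1 differed from the scrambled control by -0.68 in C66 and by -1.04 in C75 (adjusted p = 0.00926 and 0.000128), and the C66 minus C75 difference was 0.36 (adjusted p = 0.278). LY6G6D, a surface protein of colorectal tumours, differed by 0.85 in C66 and by 0.53 in C75 (adjusted p = 0.000108 and 0.0228), with 9.49 and 9.60 in C66 against 9.16 and 9.29 in C75 and 8.71 and 8.68 in the scrambled control. These were chosen after their values were seen.

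The shRNA arrays were set beside the clone as labelled, although DPPA3 itself differed by -0.04 between DPPA3 shRNA and control shRNA (SE 0.31, adjusted p = 0.9996), so no lowering was detected there. Of 15 genes that passed with DPPA3 shRNA (0.086%), 4 also passed in C66, 26.7% of the shRNA list and 1.6% of the C66 list, where 1.43% of all genes passed in C66. All 4 went in opposite directions. A2ML1 differed by -1.13 in C66 and by 1.41 with the shRNA (adjusted p = 3.9e-06). PTGDR, a prostaglandin D2 receptor, differed by -0.92 in C66 and by 0.98 with the shRNA (adjusted p = 0.00038 and 7.66e-05). LY6G6D and the myosin light chain MYL3 differed by 0.85 and 0.69 in C66 (adjusted p = 0.000108 and 0.00378), and by -0.71 and -0.74 with the shRNA (adjusted p = 0.000335 and 0.000959). These 4 were chosen by this overlap, and MYL3, PTGDR and LY6G6D were named after their values were seen. MYL3 lost its C66 call without the first C66 or second scrambled array (up to 0.082).

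Overexpression called far more genes, 995 (5.7%), of which 66 also passed in C66, 6.63% of the overexpression list and 26.4% of the C66 list. Of these 66, 39 went in opposite directions in C66 and in the overexpressing line and 27 in the same direction. The part of DPPA3 in either set was not tested, and the genes below are examples from both. KIT differed by -1.38 in C66 and by 3.08 in overexpressing cells (adjusted p = 1.86e-11), LGR5 by -1.16 and 0.59 (adjusted p = 0.00116), and SPINK1 by -2.28 and 0.73 (adjusted p = 0.00525), each lower in C66 and higher in overexpressing cells. TIMP1, which lies in the shifted X segment, was higher in C66 and lower in overexpressing cells, by 1.42 and -1.75 (adjusted p = 1.53e-07), as were SLC9A4, by 1.45 and -0.84 (adjusted p = 4.32e-05), and LEF1, by 0.78 and -0.57 (adjusted p = 0.00403). SLC26A3 rose in both, by 1.53 and 1.17 (adjusted p = 3.81e-05), as did S100A4, by 1.66 and 0.47 (adjusted p = 0.0288). Of KIT, LGR5, SPINK1 and TIMP1, the values in C75 against the scrambled control were -0.58, 0.04, -0.51 and -1.12, with adjusted p = 0.39, 0.994, 0.425 and 0.00404.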

How the data were processed

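Total RNA of SW1222 cells was extracted with Trizol and biotin-labelled by an Affymetrix protocol, per the labels' protocols. The deposited values are log2 levels made by the authors, and the submitters' processing notes name Partek 6.6 and RMA. RMA subtracts background, gives all arrays the same quantiles and combines the probes of a set. For the genome build and scan batches, nothing is given in the sources used here. In all, the table held 20276 probe sets on 24 arrays, with values of 1.56 to 12.5 and array medians of 4.01 to 4.12; the number of arrays limits the precision.

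Gene names came from the platform annotation, with 18036 sets matched to RefSeq by gene ID. Of all sets 18062 had 1 symbol, 1288 several and 926 none, and the last 2 kinds were left out. For each of 17448 genes the set with the highest mean was used (468 genes had more than 1). limma 3.58.1 in R 4.3.3 was fitted with 1 coefficient for each of 9 groups (15 residual and 9.81 prior degrees of freedom). Genes passed where limma's p, adjusted by Benjamini and Hochberg over the 17448 genes, was under 0.05. On simulated data with 200 changed genes the C66 comparison recovered 97% of changes of 1 log2 and 31% of 0.5 log2, with 11 false among 139 calls.

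Genes and lists were chosen with earlier results of these data known. The text names DPPA3, 5 measured neighbours on each side, UHRF1, DNMT1, HIF1A, VEGFA, CDKN1A, MKI67 and LGR5. It also names the 12 highest and 12 lowest differences among passed genes with non-overlapping arrays that were above the median level in the higher group, LOC and LINC symbols left out. From each list it takes up to 3 passed genes per direction by smallest p, and from C66 minus C75 the 4 highest and 4 lowest. Others are said to be named after their values were seen. Alternatives were the arrays used, a replicate block, a level filter, the mean of a gene's sets, centring, a trended robust prior, a threshold of 0.01 and each array left out.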

Additional observations from a re-analysis of the deposited data

Results flagged for a closer look

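C66 and C75 differed in the following named genes, by the limma test of C66 minus C75 at an adjusted p under 0.05 over all genes; each value is that log2 difference. Higher in C66 than in C75 were UPK1A (2.84), NELL2 (2.74), PCP4 (2.71), TIMP1 (2.54), GSTA1 (1.99), CEACAM7 (1.95), SLC9A4 (1.88), PEG10 (1.74), CACNA1E (1.73), S100A4 (1.66), DKK4 (1.54), GUCA2A (1.48), KRT23 (1.46), TNNC1 (1.45), SLC26A3 (1.32), MAOA (1.22). Also higher were DOCK9 (1.22), SERPINB5 (1.20), MAGED1 (1.14), MYO1A (1.13), RAP2A (1.12), IFI27 (1.02), KRT20 (0.97), LEF1 (0.87), ZNF81 (0.87), EBP (0.85), GRIPAP1 (0.84), ZNF182 (0.78), PQBP1 (0.78), PRDM1 (0.74), SPRY2 (0.74), CES1 (0.71). Smaller positive differences were those of MYL3 (0.67), ZNF41 (0.67), AXIN2 (0.67), ALDH1A1 (0.65), ZNF790 (0.62), TFF1 (0.62), LAMP1 (0.58), OAS1 (0.58), ZNF738 (0.42). Lower in C66 than in C75 were GABRA2 (-2.51), A2ML1 (-2.13), HAVCR1 (-1.82), SPINK1 (-1.77), IRF8 (-1.69), RNASE2CP (-1.57), PTGDR (-1.51), FABP6 (-1.44), SLCO3A1 (-1.30), LGR5 (-1.21), NT5E (-1.19), MT1F (-1.12), IGF1R (-1.07), SMOC2 (-1.07), IL37 (-0.88), CA2 (-0.83). Also lower were KIT (-0.80), HACD3 (-0.77), EGFR (-0.77), PRC1 (-0.61), KIF23 (-0.61), BLM (-0.56), RCN2 (-0.56). The scrambled control drops out of these differences, so they show a gap between 2 clones and not which of them left the control.

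Of the 2214 probe sets with several gene symbols or none, which the comparisons above did not use, 18 passed in C66 against the scrambled control, 13 higher and 5 lower (limma fitted over the sets). They were not named here.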

How the results depend on the processing

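The 250 genes called in C66 were 326 with the knockout arrays alone, 252 with its 4 arrays, 239 above the median level, 256 with the mean of a gene's sets, 248 after centring and 286 with a trended robust prior. They were 133 at an adjusted p under 0.01, 89 to 120 with 1 array left out and 153 with the shifted segments left out, an alternative chosen after seeing the data. The 506 genes that differed between C66 and C75 were 259 to 270 with 1 array left out and 324 without the segments of both clones. With the replicate number as a block the counts were 240 and 470, and 8 of the named genes lost their call. Deviations of same-numbered arrays from their group means correlated at r = 0.094, 0.009 and 0.0556. The labels do not say whether the numbers pair the arrays, and these correlations do not settle it. Of 81 named genes that passed, 38 kept the call in every alternative that tested them (5 of these lie at or under the median level and were not in the fit of genes above it), 43 lost it with 1 array left out and 15 in another alternative, and 0 changed sign; a lone array left in a group is assumed to vary like the other groups. These counts of named genes cover the alternative fits and do not include the threshold of 0.01. The cause of these losses was not tested. DPPA3 ran from -0.338 to 0.0093 with 1 array left out. Among uncalled genes the sign turned for CD163 after centring (0.0069), and with 1 array left out for APOBEC1 (-0.1385 to 0.0112), CD163 (-0.0508 to 0.0458), CDKN1A (-0.1293 to 0.0722), CLEC4C (-0.3005 to 0.0216), DNMT1 (-0.0643 to 0.0424), GDF3 (-0.1256 to 0.0671), HIF1A (-0.2486 to 0.0156), NANOGNB (-0.2737 to 0.106), PEX5 (-0.0145 to 0.1798), SLC2A14 (-0.112 to 0.0906) and VEGFA (-0.2943 to 0.0045), each given with its range over those arrays.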
